A study of Drosophila melanogaster with 12 samples.

Results

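The genes described here are the translation initiation factors of Drosophila melanogaster, taken as every gene whose FlyBase symbol starts with eIF, apart from the exon junction helicase eIF4AIII. They number 44 of the 17492 genes in the tables, and every one has a row in both the mRNA and the pre-mRNA table. Total RNA was sequenced from the dissected body wall (carcass) of stationary larvae of the 3rd instar, with the internal tissues taken out. The Nxt1 group consisted of larvae trans-heterozygous for Nxt1 alleles, with yw given as their strain, and the WT group of wildtype larvae of the strain w1118. Each genotype had 3 M libraries, which carry the mRNA and pre-mRNA values, and 3 R libraries, which carry circular RNA counts. The labels name neither the Nxt1 alleles nor the number of larvae behind a library. Strain differed with genotype in every comparison, so their effects cannot be told apart. Nxt1 encodes a small partner of the mRNA export receptor, and the study asked how its reduction alters pre-mRNA, mRNA and circular RNA.

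Initiation factors bring the initiator tRNA and the mRNA to the small ribosomal subunit, find the start codon and let the large subunit join. The eIF4 factors bind and unwind the capped 5′ end, eIF3 is the multi-subunit scaffold on the small subunit, eIF2 with eIF1, eIF1A and eIF5 delivers the initiator tRNA and selects the start codon, and eIF2B recharges eIF2 with GTP. Most of these genes are used by every growing cell, while the fly genome also holds extra copies of several of them, some of which are used mainly in the male germ line.

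The reads assigned to mRNA numbered between 19830526 and 32868851 in the Nxt1 libraries and between 30193498 and 32305638 in the WT libraries. The Nxt1 mRNA itself had 93, 165 and 147 reads in Nxt1 libraries 1 to 3, against 346, 262 and 303 in WT libraries 1 to 3 (log2 fold -0.58, limma adjusted p = 0.0164). The tissue label was checked against muscle markers, none of which was at 0 in any library. Their summed level was 74675 to 94576 per 1000000 mRNA reads in Nxt1 and 36828 to 81968 in WT, and 5 of 12 rose in Nxt1, where 12.5% of all genes tested rose and 9.1% fell. Of the other lists, 4 of 9 epidermis and cuticle genes tested, 4 of 8 fat body genes and 6 of 8 salivary gland genes rose in Nxt1, with none lower. On the same scale epidermis and cuticle markers summed to 79779 to 98396 in Nxt1 and 42693 to 57047 in WT, with 1 of 10 at 0 in some library. Fat body markers summed to 6369.9 to 9278 in Nxt1 and 4750.3 to 5506 in WT, and salivary gland markers to 222 to 582 in Nxt1 and 32.3 to 206 in WT, with none at 0. In the other direction 2 of 5 nervous system genes tested fell (36.5 to 45.0 in Nxt1, 58.9 to 60.0 in WT) and 1 of 7 imaginal cell genes fell (158 to 185 in Nxt1, 250.2 to 298 in WT), with none higher or at 0. Of 8 hemocyte genes 2 rose and 1 fell (1005 to 1409 in Nxt1, 788 to 1042 in WT), and 1 of 5 midgut genes rose (15.2 to 133 in Nxt1, 5.45 to 71.0 in WT). In bulk RNA a change in the number of cells of one type and a change in RNA per cell cannot be told apart, and the part of these shifts in the results below was not tested.

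Initiation factor mRNAs were abundant, and together took a smaller share of mRNA reads in Nxt1. They held 0.731%, 0.739% and 0.744% of the reads in Nxt1 libraries 1 to 3, against 0.922%, 0.922% and 0.948% in WT libraries 1 to 3. The Nxt1 shares all lay below the WT shares. A share of this kind moves with the most abundant genes of a library, and the deposited values carry library factors, recoverable from them, that are not proportional to these totals. With library totals set equal, the median log2 fold of all genes tested was -0.32, against 0.01 with the deposited factors. Changes below are given on the deposited scaling.

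Levels of different genes can be set side by side only per length, and the feature lengths behind the deposited FPKM (fragments per kilobase of feature and per 1000000 reads) are out of order between genes. With the lengths put back in order, 40 of the 44 genes had a length of their own, and 32 of these averaged at least 1 FPKM. An exonic and an intronic length were both available for 16 genes. Their sum equalled the span of the gene in the reference annotation for 10 of these, and why it differed for the rest was not tested. On the re-ordered lengths the RNA helicase eIF4A stood above all others, at 905 ± 23.8 FPKM in Nxt1 and 937 ± 11.2 FPKM in WT (SD, n = 3 each). Its partners in the cap-binding complex were lower, the cap-binding protein eIF4E1 at 139 ± 1.43 in Nxt1 and 129 ± 0.618 in WT, and the scaffold eIF4G1 at 119 ± 3.90 in Nxt1 and 111 ± 5.13 in WT. Within a library the level per length of eIF4A was 6.51 ± 0.22 times that of eIF4E1 in Nxt1 and 7.24 ± 0.074 times in WT. That of eIF4E1 was 1.17 ± 0.0414 times that of eIF4G1 in Nxt1 and 1.17 ± 0.0609 times in WT. These ratios depend on no scaling of libraries. At the low end stood the helicase cofactor eIF4B, with 6.07 ± 0.269 FPKM in Nxt1 and 6.36 ± 0.0944 in WT.

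The subunits of eIF3 were close to each other in level per length. Without the loosely attached eIF3j, 11 subunits with a known length spanned 99.7 to 178 FPKM in Nxt1 and 100.2 to 155 FPKM in WT, a ratio of 1.79 between highest and lowest in Nxt1 and 1.55 in WT. eIF3j had 60.4 ± 1.46 FPKM in Nxt1 and 56.8 ± 3.25 in WT. The exchange factor eIF2B was less even. Its catalytic subunit eIF2Bepsilon had 9.58 ± 0.538 FPKM in Nxt1 and 10.2 ± 0.606 in WT, and its regulatory subunit eIF2Bdelta had 64.4 ± 1.93 in Nxt1 and 71.3 ± 13.2 in WT. In the start selection group eIF1 was highest, with 277 ± 8.77 FPKM in Nxt1 and 263 ± 5.09 in WT. The lowest there was eIF2gamma, the GTP-binding subunit of eIF2, with 58.3 ± 0.365 in Nxt1 and 65.5 ± 4.34 in WT.

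**Figure D1:**
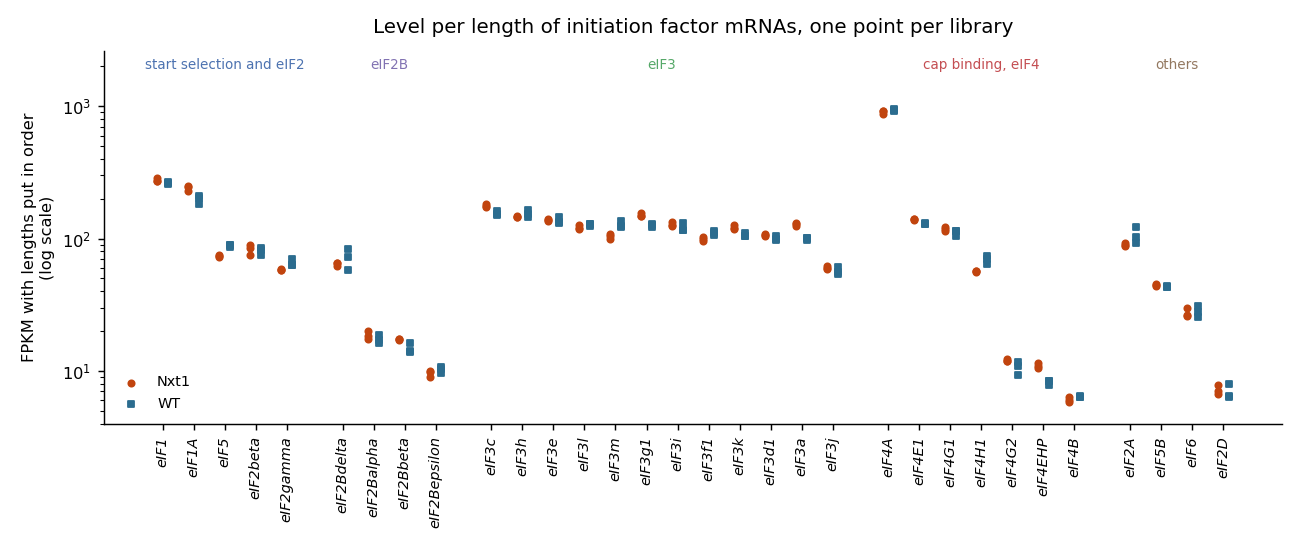
FPKM of 32 initiation factor mRNAs after the feature lengths were put back in order (vertical log axis), by gene and role on the horizontal axis, with 1 point for each Nxt1 library (circles) and each WT library (squares). eIF4A lies highest, at 905 FPKM in Nxt1 and 937 in WT, eIF3 subunits other than eIF3j lie between 99.7 and 178 FPKM in their group means, and eIF2B subunits other than eIF2Bdelta lie lower.

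To ask how the genotype changed these mRNAs, the whole table was fitted with limma on log2(FPKM + 1), with a minimum mean of 1 FPKM, and a p under 0.05 after Benjamini-Hochberg adjustment over all genes was called a change. Of the 44 genes, 36 passed the filter. Between the genotypes 3 rose and 2 fell in Nxt1, or 13.9% of those tested, where 21.6% of all 8923 genes tested were called, 12.5% as higher and 9.1% as lower. The 3 that rose were eIF4EHP, eIF3a and eIF3g1, and the 2 that fell were eIF3m and eIF5. With equal library totals eIF3a and eIF3g1 turned to log2 folds of -0.02 and -0.10, and eIF4EHP kept 0.05, with none of the 3 called. eIF3m and eIF5 stayed called as lower under that scaling, at -0.66 and -0.62. The counts of calls then were 0 higher and 24 lower, where 54.9% of all genes were called and 49.0% were lower, and 34 of the 36 log2 folds were below 0.

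Folds of the initiation factors were small on the deposited scaling, while with equal library totals their median log2 fold was -0.31, against -0.32 over all genes tested. On the deposited scaling the median log2 fold was 0.05, against 0.01 over all genes tested, and the median absolute log2 fold was 0.10, against 0.21. The spread between libraries of a genotype, as an SD of log2(FPKM + 1), had a median of 0.0627 for these 36 genes and 0.138 for all genes tested. For 34 of them the 95% interval of the fold lay within 1.5-fold in either direction, the exceptions being eIF4EHP and the scarce eIF4E3. The fold itself lay within that bound for 97.2% of the 36, against 82.9% of all genes tested. Nxt1 and WT libraries did not overlap for 18 of the 36, with Nxt1 above for 12 and below for 6. Over all genes tested 43.9% did not overlap, 24.2% with Nxt1 above and 19.6% with Nxt1 below.

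**Figure D2:**
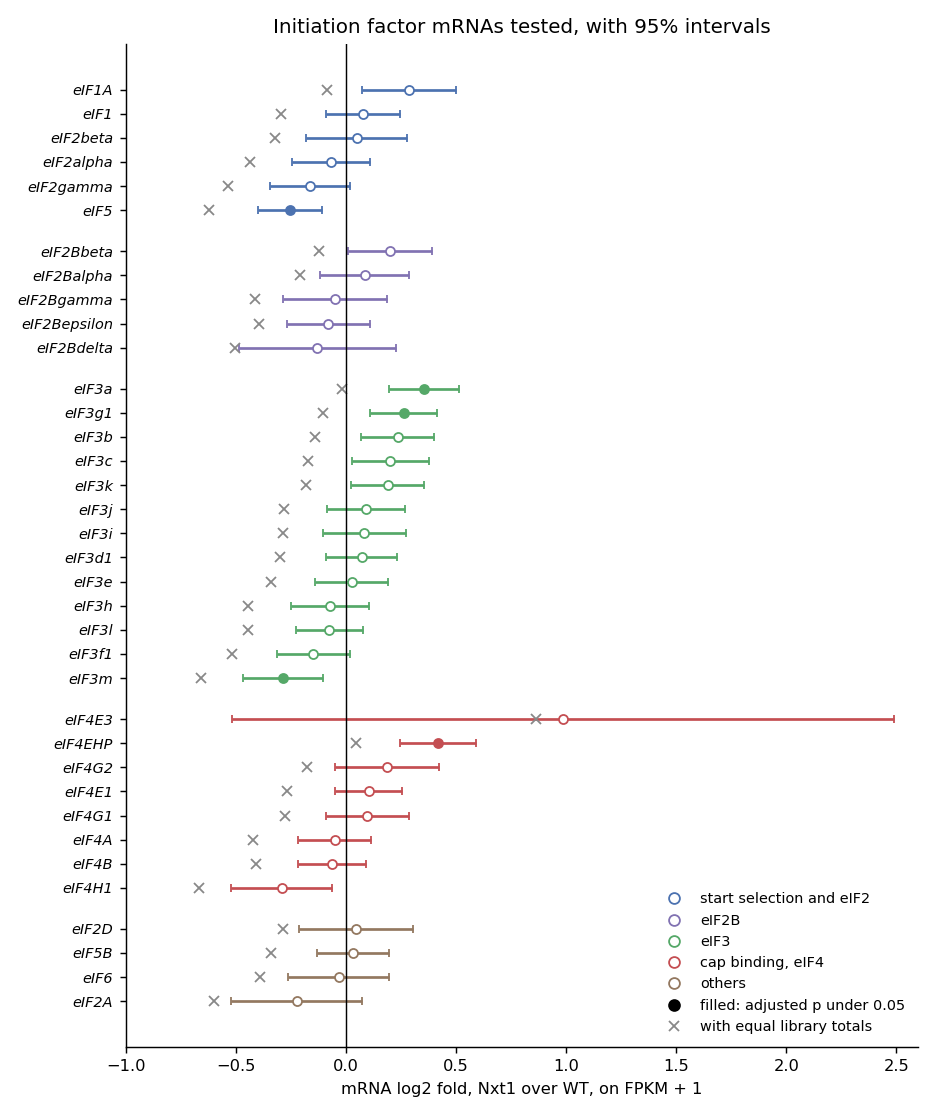
mRNA log2 fold of Nxt1 over WT on FPKM + 1 (horizontal axis) for the 36 initiation factors tested, grouped by role, with 95% intervals from 3 libraries in each group. Filled circles mark adjusted p under 0.05, and crosses give the log2 fold with equal library totals, under which eIF3a and eIF3g1 fall below 0 and 34 of 36 crosses lie below 0.

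Among the cap-binding factors 1 of 8 tested rose and none fell, the same 12.5% higher as over all genes. eIF4EHP (FBgn0053100), a cap-binding protein that does not bind eIF4G and represses translation of bound mRNAs, had 112, 107 and 102 FPKM in Nxt1 libraries 1 to 3, against 82.1, 76.4 and 81.5 FPKM in WT libraries 1 to 3. Each Nxt1 library lay above each WT library. The fold was 1.33 (95% interval 1.18 to 1.51, log2 fold 0.42, SE 0.0712, limma adjusted p = 0.0132). Its level per length was 11.05 ± 0.516 FPKM in Nxt1 and 8.25 ± 0.322 in WT, or 0.0794 ± 0.00303 times that of eIF4E1 in Nxt1 and 0.0637 ± 0.00248 times in WT. Without Nxt1 replicate 1 and without Nxt1 replicate 2 the limma adjusted p was 0.0519 and 0.0587, and with equal library totals it was 0.601. The neuronal syntaxin gene Syx1A lies inside the span of eIF4EHP in the reference annotation and had 1687, 2911 and 2789 reads in Nxt1, against 2293, 2140 and 2295 in WT (log2 fold 0.62, limma adjusted p = 0.00405). The library kit marks strand, but no source used here says whether counting did, and the part of Syx1A reads in the value of eIF4EHP was not tested.

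The opposite end of the cap-binding group was eIF4H1, an RNA-binding cofactor of the eIF4A helicase, which was not called. It had 3029, 3081 and 3096 FPKM in Nxt1 libraries 1 to 3, against 4003, 3827 and 3458 FPKM in WT libraries 1 to 3, with all Nxt1 libraries lower. The fold was 0.817 (95% interval 0.697 to 0.958, log2 fold -0.29, limma adjusted p = 0.0752). On recovered reads, where edgeR called 22.5% of all genes, it was lower with an edgeR adjusted p of 0.0429. Without WT replicate 3 limma also called eIF4H1 lower (log2 fold -0.35, adjusted p = 0.0201), where 2696 of all genes were called, against 1929 with all libraries. eIF4E1, the main cap-binding protein, had 228, 227 and 224 FPKM in Nxt1, against 209.9, 211 and 212 FPKM in WT, so that the groups did not overlap although the difference was small (log2 fold 0.10, limma adjusted p = 0.275). eIF4G1 had 764, 816 and 788 FPKM in Nxt1, against 754, 760.2 and 698 FPKM in WT (log2 fold 0.10, limma adjusted p = 0.41). The helicase eIF4A had a log2 fold of -0.05 and a 95% interval of 0.861 to 1.08 for its fold (limma adjusted p = 0.624). For eIF4B the log2 fold was -0.06 (limma adjusted p = 0.506). All of eIF4E1, eIF4G1, eIF4A and eIF4B were below WT with equal library totals, at log2 folds of -0.27, -0.28, -0.42 and -0.41.

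eIF4G2, a second eIF4G that in flies is needed for male meiosis, had 42.4, 41.3 and 41.3 FPKM in Nxt1, against 37.6, 40.5 and 32.0 FPKM in WT. Its Nxt1 libraries were higher than those of WT, with WT replicate 2 close below them (log2 fold 0.19, limma adjusted p = 0.218), a direction that turned to -0.18 with equal library totals. Per length eIF4G1 stood 9.81 ± 0.452 times above eIF4G2 in Nxt1 and 10.5 ± 0.797 times in WT. The span of eIF4G2 overlaps CG34355, whose mRNA fell in Nxt1 (85, 139 and 127 reads, against 573, 541 and 447 in WT, limma adjusted p = 0.00151). It also overlaps CG33111, which was not called (1971, 3341 and 3706 reads, against 3705, 4030 and 3366 in WT, log2 fold 0.20, limma adjusted p = 0.156). Of the 44 genes, 21 have a span that overlaps another gene, and the part of shared reads was not tested.

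**Figure D3:**
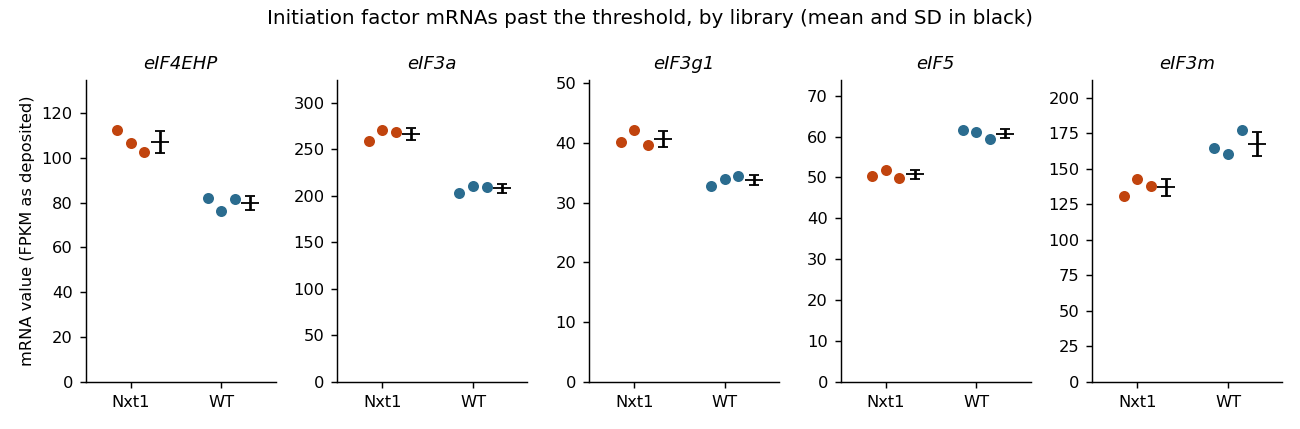
Deposited FPKM (vertical axes, starting at 0) of the 5 initiation factor mRNAs past the threshold in 3 Nxt1 and 3 WT libraries, with the mean and SD in black. Nxt1 points of eIF4EHP, eIF3a and eIF3g1 lie above all WT points and those of eIF5 and eIF3m below them; with equal library totals eIF3a and eIF3g1 turn to log2 folds of -0.02 and -0.10.

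In the eIF3 complex 2 of 13 subunits tested rose and 1 fell, or 23.1% against 21.6% of all genes, with log2 folds between -0.29 and 0.35 and a median of 0.08, and with equal library totals all 13 were below 0. eIF3a (FBgn0037249), the largest subunit and the scaffold of the complex, had 259, 271 and 269 FPKM in Nxt1, against 203, 211 and 209.8 FPKM in WT, with no overlap. Its fold was 1.28 (95% interval 1.14 to 1.43, log2 fold 0.35, SE 0.0654, limma adjusted p = 0.0165), and with equal library totals its log2 fold was -0.02. eIF3g1 (FBgn0029629), an RNA-binding subunit, had 40.2, 42.1 and 39.7 FPKM in Nxt1, against 32.8, 33.9 and 34.5 FPKM in WT. All Nxt1 libraries were again higher, by 1.20-fold (95% interval 1.08 to 1.33, log2 fold 0.26, limma adjusted p = 0.0327), a direction that turned to -0.10 with equal library totals.

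eIF3m (FBgn0033902), one of the subunits with a PCI domain, moved the other way. It had 131, 143 and 138 FPKM in Nxt1, against 165, 161 and 177 FPKM in WT, each Nxt1 library lying below each WT library (fold 0.820, 95% interval 0.723 to 0.931, log2 fold -0.29, limma adjusted p = 0.0431). Both ends of the complex can be set against each other within a library, where scaling plays no part. The level per length of eIF3a was 1.25, 1.20 and 1.23 times that of eIF3m in Nxt1 libraries 1 to 3, against 0.781, 0.832 and 0.750 times in WT libraries 1 to 3. This pair was chosen after its values were seen, as the extremes of the complex, so the ratio is given without a test.

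Each of these 3 calls was lost when single libraries were left out. That of eIF3a was lost without WT replicate 1 (limma adjusted p = 0.0665) and without Nxt1 replicate 1 (0.0524), 2 (0.0755) or 3 (0.0706). Those of eIF3g1 and eIF3m were lost without any 1 library other than WT replicate 3, with adjusted p between 0.0705 and 0.124 for eIF3g1 and between 0.0636 and 0.131 for eIF3m. Without WT replicate 3, eIF3b and eIF3c were also called, at log2 folds of 0.25 and 0.23. In that setting 2696 of all genes were called, against 1929 with all libraries. By edgeR on recovered reads eIF3a and eIF3m were called, with adjusted p of 0.0371 and 0.0322, and eIF3g1 was not, with 0.0672.

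The remaining subunits were sorted by their place in the complex as known from human eIF3. Of the 8 subunits of the core built from PCI and MPN domains, eIF3a, eIF3c and eIF3k had all Nxt1 libraries above WT, and eIF3f1 and eIF3m had all below, where 24.2% and 19.6% of all genes did so, while with equal library totals all of these were lower than WT on average. eIF3c had 426, 449 and 431 FPKM in Nxt1, against 368, 372 and 396 FPKM in WT (log2 fold 0.20, limma adjusted p = 0.0983). In the attached module of eIF3b, eIF3g1 and eIF3i, the log2 folds were 0.23, 0.26 and 0.08. eIF3b was not called, with 584, 583 and 571 FPKM in Nxt1, against 494, 479.7 and 504 FPKM in WT (limma adjusted p = 0.0568), and turned to -0.14 with equal library totals. On recovered reads DESeq2, with 22.7% of all genes called, called eIF3b higher (adjusted p = 0.00554), and edgeR did not (adjusted p = 0.138). For eIF3d1, which can contact the cap in human cells, values were 184, 180.1 and 181 FPKM in Nxt1 and 171, 167 and 180.2 FPKM in WT, and the groups overlapped (limma adjusted p = 0.476). eIF3f1 had 177, 166 and 172 FPKM in Nxt1, against 191, 183 and 196 FPKM in WT, a log2 fold of -0.15 (limma adjusted p = 0.175).

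In the start selection group 1 of 6 fell and none rose, or 16.7% against 21.6% of all genes called. eIF5 (FBgn0030719), which triggers GTP hydrolysis on eIF2 at the start codon, had 50.4, 51.9 and 49.9 FPKM in Nxt1, against 61.6, 61.2 and 59.4 FPKM in WT. The groups did not overlap, and the fold was 0.838 (95% interval 0.757 to 0.928, log2 fold -0.25, SE 0.0602, limma adjusted p = 0.0323). The call was kept without WT replicate 3 and lost without any other 1 library, with adjusted p between 0.0751 and 0.117. CG46312, whose span lies inside that of eIF5, had 98.6%, 99.0% and 98.7% as many reads as eIF5 in Nxt1, against 98.7%, 98.8% and 98.9% in WT, so the pair is close to 1 measurement.

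eIF1A, which helps the small subunit scan for the start codon, was at the other end of this group, with 909.5, 982 and 990.0 FPKM in Nxt1, against 801, 831 and 729.7 FPKM in WT. Its libraries did not overlap, and the difference was not called (log2 fold 0.29, limma adjusted p = 0.0651), with a log2 fold of -0.09 under equal library totals. DESeq2 on recovered reads, which called 22.7% of all genes, called eIF1A higher (adjusted p = 0.0213), and edgeR did not (adjusted p = 0.116). The 3 subunits of eIF2 were within a narrow range. eIF2gamma had 135, 136 and 135 FPKM in Nxt1, against 147, 145 and 164 FPKM in WT (log2 fold -0.16, limma adjusted p = 0.166), while eIF2alpha and eIF2beta, with overlapping libraries, had log2 folds of -0.07 and 0.05. For eIF1, which guards against wrong start codons, the log2 fold was 0.08 (limma adjusted p = 0.457).

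None of the 5 eIF2B subunits passed the threshold, and none of the 4 other factors did, where 21.6% of all genes were called. eIF2Bbeta, a regulatory subunit, had 6.96, 7.06 and 6.87 FPKM in Nxt1, against 5.68, 5.62 and 6.53 FPKM in WT, with Nxt1 above WT and WT replicate 3 nearest to it (log2 fold 0.20, limma adjusted p = 0.118, and -0.12 with equal library totals). eIF2Bdelta had 895, 948 and 936 FPKM in Nxt1, against 1036, 1208 and 829 FPKM in WT, where the WT libraries spread around those of Nxt1 (log2 fold -0.13, limma adjusted p = 0.56). eIF2D, which in mammals can deliver initiator tRNA, had 8.71, 7.46 and 7.94 FPKM in Nxt1, against 7.11, 7.28 and 8.94 FPKM in WT (log2 fold 0.05, limma adjusted p = 0.787). eIF2A, another tRNA-binding factor, had 1601, 1548 and 1525 FPKM in Nxt1, against 1781, 1599 and 2118 FPKM in WT, where WT replicate 2 fell within the range of Nxt1 (log2 fold -0.22, limma adjusted p = 0.232). For eIF5B, which joins the ribosomal subunits, and eIF6, which keeps them apart, the log2 folds were 0.03 and -0.03, with 95% intervals of the fold from 0.914 to 1.14 and from 0.834 to 1.15.

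The extra copies were scarce. In 9 of them, eIF4E3 to eIF4E7, eIF3d2, eIF3f2, eIF3g2 and eIF4H2, the reads summed to 84, 31 and 10 in Nxt1 libraries 1 to 3, against 22, 15 and 10 in WT libraries 1 to 3. Nxt1 replicate 1, the library with the fewest mRNA reads in all, had more of them than any other library. The testis gene eIF4E3, needed for male meiosis, had 41, 10 and 2 reads in Nxt1, against 2, 2 and 6 in WT, with 77.4% of its Nxt1 reads in replicate 1. It alone among the 9 passed the filter, through a length that belongs to another gene (log2 fold 0.99, limma adjusted p = 0.293). Its level per length averaged 0.872 ± 1.17 FPKM in Nxt1 and 0.0895 ± 0.0644 in WT. DESeq2 on recovered reads, which called 22.7% of all genes, called it higher, with an adjusted p of 0.0353.

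The other 8 copies did not pass the filter and were not tested with limma, and edgeR tested none of them. DESeq2, with 22.7% of all genes called, called eIF4E5 and eIF3f2 higher in Nxt1 (adjusted p = 0.00686 and 0.00797), did not call eIF4E6 (adjusted p = 0.96) and gave no adjusted p for the remaining 5. eIF4E5 had 16, 4 and 2 reads in Nxt1 and was listed at 0 in all WT libraries. eIF3f2 had 7, 10 and 2 reads in Nxt1 and was likewise listed at 0 in WT, while eIF3g2 had 3, 1 and 0 reads in Nxt1 and was at 0 in WT. eIF4E6 ran the other way in part, with 9, 5 and 4 reads in Nxt1, against 17, 8 and 2 in WT. eIF4E7 had 5, 1 and 0 reads in Nxt1 and 1, 0 and 1 in WT. eIF4E4 was listed at 0 in Nxt1 and had 1, 3 and 1 reads in WT, eIF3d2 was at 0 in Nxt1 and had 0, 2 and 0 in WT, and eIF4H2 had 3, 0 and 0 in Nxt1 and 1, 0 and 0 in WT.

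Other testis genes were uneven between the same libraries. The spermatocyte tubulin betaTub85D had 60, 12 and 0 reads in Nxt1 libraries 1 to 3, against 1, 16 and 6 in WT. The meiotic arrest gene can had 23, 5 and 0 reads in Nxt1, against 0, 1 and 1 in WT. Another gene of that class, aly, had 11, 1 and 0 reads in Nxt1 and was listed at 0 in WT. These 3 genes were named after their values were seen. Of the 16 genes in the testis list, 0, 0 and 8 were at 0 in Nxt1 libraries 1 to 3 and 4, 3 and 3 in WT. The sum over the whole list was 52.5 to 60.5 per 1000000 mRNA reads in Nxt1 and 82.7 to 91.4 in WT. Most of this sum came from bol, which had 797, 1304 and 1210 of the 1200, 1902 and 1726 list reads in Nxt1. In WT bol had 2171, 2186 and 2260 of 2671, 2723 and 2759 reads. Limma tested bol, twe and fzo of this list and called only bol, as lower (log2 fold -0.48, limma adjusted p = 0.0106), with twe at -0.39 and fzo at 0.30. The part of these reads in the values of the scarce copies was not tested.

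**Figure D4:**
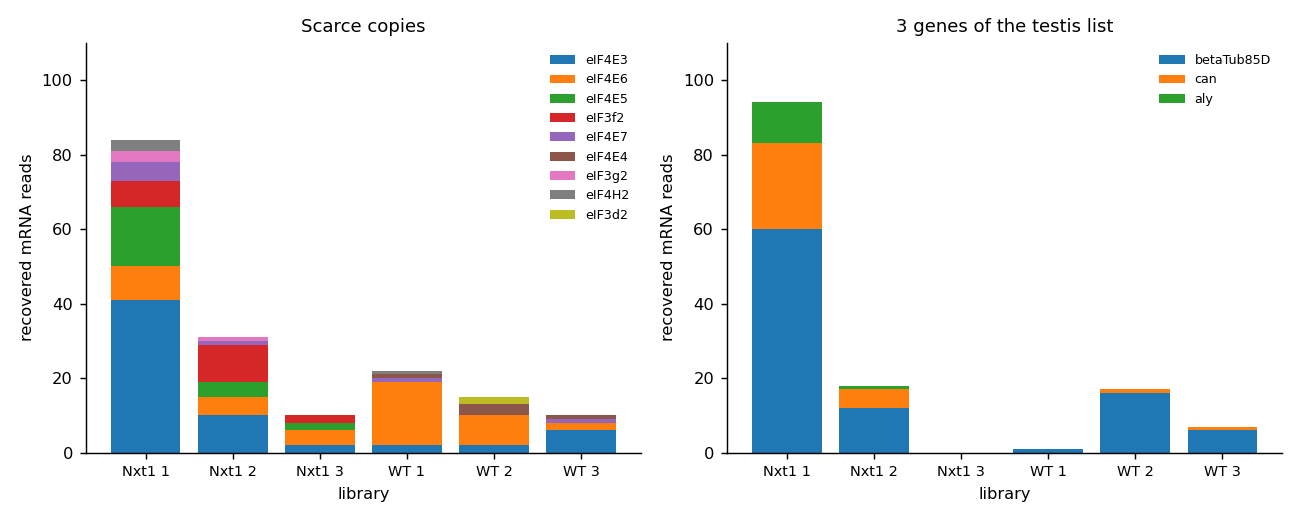
Recovered mRNA reads (vertical axes) in each of the 3 Nxt1 and 3 WT libraries, stacked by gene, for 9 scarce initiation factor copies (left) and for 3 genes of the testis list (right). Nxt1 replicate 1 has the tallest bar in both panels, with 84 reads over the scarce copies.

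Pre-mRNA values, which count reads in introns as far as the implied lengths show, were available for fewer of these genes. Of the 44, 21 had no reads in any library, 9 were listed as infinite and could not be used, and 14 had finite values, of which 13 passed the filter. None of the 13 changed by limma, where 1.48% of 3576 genes tested did. At an unadjusted p under 0.05 there were 3 of 13, or 23.1% against 16.8% of all genes, edgeR called 0 of them against 8.22% of all genes, and DESeq2 called 1, which was eIF4EHP, against 8.53%. The median log2 fold was -0.09, against -0.03 over all genes tested.

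Intronic reads of eIF4EHP were by far the most numerous, at 2010, 3687 and 3522 in Nxt1, against 3027, 2810 and 2853 in WT. Relative to the library factors all Nxt1 libraries were above WT (log2 fold 0.57, 95% interval of the fold 1.23 to 1.78, limma adjusted p = 0.0736). It was called by DESeq2 (adjusted p = 0.0149) and by limma without WT replicate 3 (log2 fold 0.64, adjusted p = 0.0436). The mRNA reads of Syx1A, which lies inside this gene, kept a near constant proportion to them, with 1.19, 1.27 and 1.26 intronic eIF4EHP reads for each Syx1A read in Nxt1, against 1.32, 1.31 and 1.24 in WT. How many of the intronic reads come from Syx1A was not tested.

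The next in number of intronic reads were close to no change. eIF5B had 169, 311 and 317 intronic reads in Nxt1, against 421, 426 and 353 in WT (log2 fold -0.11, limma adjusted p = 0.616). eIF4G1 had 138, 274 and 268 in Nxt1, against 296, 337 and 273 in WT (log2 fold 0.06, limma adjusted p = 0.854). Once scaled, the libraries of eIF4G1 overlapped and those of eIF5B did not. Both genes have an intron length of their own, so intronic and exonic levels per length can be compared within a library. For eIF5B the intronic level was 16.9%, 15.8% and 15.7% of the exonic level in Nxt1, against 17.8%, 17.9% and 17.6% in WT. For eIF4G1 it was 14.9%, 14.4% and 14.5% in Nxt1, against 13.5%, 15.5% and 16.0% in WT.

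eIF4G2 had 74, 146 and 154 intronic reads in Nxt1, against 204, 204 and 148 in WT (log2 fold -0.09, limma adjusted p = 0.781). eIF4A had 66, 113 and 137 in Nxt1, against 167, 146 and 127 in WT (log2 fold 0.00, limma adjusted p = 0.999). Once scaled, the libraries of the genotypes overlapped for both genes. The remaining 8 genes had between 2 and 385 intronic reads over the 6 libraries. eIF1 had 11, 16 and 13 intronic reads in Nxt1, against 30, 29 and 37 in WT, with Nxt1 lower in each library (log2 fold -0.73, limma adjusted p = 0.218). eIF3c had 8, 8 and 7 in Nxt1 and 16, 16 and 16 in WT (log2 fold -0.53, limma adjusted p = 0.462), and eIF3j had 1, 6 and 4 in Nxt1 and 6, 8 and 9 in WT (log2 fold -0.82, limma adjusted p = 0.414). eIF3i gave the largest positive fold from only 1, 2 and 5 reads in Nxt1, against 1, 1 and 1 in WT (log2 fold 1.45, limma adjusted p = 0.153). eIF5 had 15, 57 and 50 intronic reads in Nxt1, against 98, 77 and 88 in WT (log2 fold -0.42, limma adjusted p = 0.616). Its pre-mRNA values averaged only 0.963 FPKM in Nxt1 and 1.61 in WT, so the fold on FPKM + 1 is understated. On recovered reads its log2 fold was -0.72 (edgeR adjusted p = 0.116). Scaled Nxt1 and WT libraries did not overlap for eIF1, eIF3i and eIF5 and overlapped for eIF3c and eIF3j. None of these 5 genes passed the adjusted threshold. The share of all pre-mRNA genes without overlap was not computed, so overlap of pre-mRNA values is only described here.

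**Figure D5:**
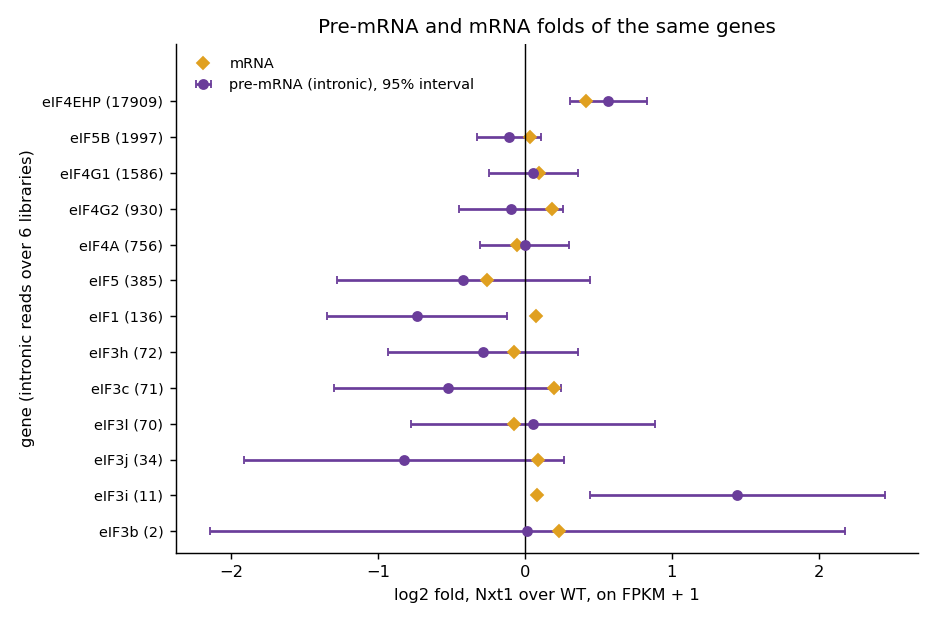
Log2 fold of Nxt1 over WT on FPKM + 1 (horizontal axis) for pre-mRNA (circles, with 95% intervals) and mRNA (diamonds) of the 13 initiation factors with testable pre-mRNA values, ordered by intronic reads over 6 libraries, which are given beside each name. eIF4EHP, with the most reads, lies at 0.57 for pre-mRNA and 0.42 for mRNA, and the widest interval is that of eIF3b, with 2 reads.

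The ratio of mRNA to pre-mRNA within a library was tested for the same 13 genes, and none changed, where 0.29% of 3103 genes tested did. At an unadjusted p under 0.05 there were 3 of 13, or 23.1% against 16.6% of all genes. The largest differences in this ratio were those of eIF3i (log2 difference -1.36, limma adjusted p = 0.197), eIF3j (0.91, limma adjusted p = 0.366) and eIF1 (0.81, limma adjusted p = 0.22), all on few intronic reads. For eIF4EHP the log2 difference was -0.15 (95% interval -0.35 to 0.04, limma adjusted p = 0.401), and for eIF4G2 it was 0.28 (limma adjusted p = 0.3). No listed circular RNA came from an initiation factor gene, at 0 of 467 circles in the Nxt1 list and 0 of 597 in the WT list. No source used here gives the rule by which a circle was listed, so an absent circle shows no level.

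Regulators and partners of initiation were read from a list of 32 genes, of which 30 are in the table and were tested. In Nxt1 3 rose and 3 fell, or 20.0%, close to the 21.6% of all genes, with a median log2 fold of 0.03. The eIF4E-binding repressor Thor rose to 88.0 ± 2.73 FPKM in Nxt1, against 66.5 ± 5.21 FPKM in WT (log2 fold 0.40, limma adjusted p = 0.021). The kinase Lk6, which phosphorylates eIF4E, fell to 650.04 ± 18.5 FPKM in Nxt1, against 1039 ± 57.6 FPKM in WT (log2 fold -0.67, limma adjusted p = 0.00495). The growth kinase S6k fell to 46.0 ± 1.51 FPKM in Nxt1, against 65.5 ± 3.80 in WT (log2 fold -0.50, limma adjusted p = 0.00818).

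The re-initiation factor MCTS1, a partner of DENR, rose to 11.5 ± 0.0919 FPKM in Nxt1, against 9.26 ± 0.76 in WT (log2 fold 0.29, limma adjusted p = 0.0437). Of the elongation factors, the exchange factor subunit eEF1beta rose to 434 ± 10.7 FPKM in Nxt1, against 324 ± 34.9 in WT (log2 fold 0.42, limma adjusted p = 0.029). eEF1alpha2, which carries aminoacyl tRNA, fell to 2.93 ± 0.357 FPKM in Nxt1, against 4.37 ± 0.646 in WT (log2 fold -0.45, limma adjusted p = 0.045). Under equal library totals Thor and eEF1beta had log2 folds of 0.03 and 0.05 and MCTS1 turned to -0.05, while Lk6, S6k and eEF1alpha2 remained lower at -1.05, -0.87 and -0.74.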

How the data were processed

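Total RNA of larval carcasses was measured in 12 libraries, in 4 groups of 3 by their titles. Per the labels, the authors deposited the mRNA and pre-mRNA values of the M libraries in FPKM. Per the file headers, the authors deposited circular RNAs of the R libraries with raw back-splice counts, of which the host genes were read, and 6 columns of scaled values were not used. The protocol describes RNase R and mock treatment of RNA before a stranded, rRNA-depleted library kit, without tying M and R to them. DESeq2, featureCounts 1.6.2, Subread, STAR 2.5.3a and Trimmomatic 0.36 are named, without roles, in the submitters' processing notes. No source used here names a genome build, so no coordinates are printed, and no sequences were used.

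Symbols were found for 17371 of 17492 IDs, with eIF4AIII listed as CG7483 and eIF5A as eEF5. FPKM of a gene stand in whole-number proportions, which gave back whole reads (tolerance 0.01) for each of 15293 mRNA genes and 4543 pre-mRNA genes that had reads and no infinite value. The length implied for a row is that of another gene, fixed by sorting the IDs, and was moved to its own gene for levels between genes. Infinite pre-mRNA values come from lengths of 0 and were left out.

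limma 3.58.1 in R 4.3.3 (eBayes with trend, genotype as the term) was fitted to log2(FPKM + 1) of every gene averaging at least 1 FPKM, with Benjamini-Hochberg adjustment. Folds are on FPKM + 1, which understates changes of low genes, and intervals are 95% intervals of the fit. edgeR 4.0.16 (quasi-likelihood) and DESeq2 1.42.0 on recovered reads, and changes of pseudocount, filter, scaling, prior, weights, replicate block, lengths and libraries, were alternatives. Read recovery and the limma fit were tested on simulated data, which did not cover the re-ordering of lengths or infinite values. Nothing says that libraries came from separate pools of larvae, so p-values measure the spread between these libraries, which may be technical.

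Named with values were genes called in a test, families with a tissue-restricted copy, the highest and lowest log2 fold of each role group and called genes of the pathway list; others beside them were chosen after their values were seen. The members, gene lists and markers were chosen with earlier results of these data known.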

Additional observations from a re-analysis of the deposited data

How the results depend on the processing

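Of the 5 mRNA calls among initiation factors, 13 of 17 alternatives kept eIF4EHP, 11 eIF5, 10 each eIF3a and eIF3m, and 8 eIF3g1. The number called was 24 with equal library totals, 12 with array weights, 11 with DESeq2 and 0 to 9 when 1 library was left out, and over all genes, where it was 1929, it was 4897 with equal totals, 4229 with array weights and 767 to 2696 without 1 library. The median mRNA log2 fold of these genes, 0.05, was -0.31 with equal totals, -0.078 with quantile normalization and 0.0021 with edgeR. Log2 folds above 0 numbered 21 with the deposited factors and 2 with equal totals. Among genes called under either scaling, those of eIF1 (-0.30), eIF2beta (-0.32), eIF3a (-0.018), eIF3d1 (-0.30), eIF3e (-0.34), eIF3g1 (-0.10), eIF3i (-0.29), eIF3j (-0.28), eIF4E1 (-0.27), eIF4G1 (-0.28) and eIF5B (-0.34) changed sign with equal totals. The other sign changes were in genes called under neither scaling. For pre-mRNA, where 53 genes were called, the number was 131 with array weights, 9 with lengths in order, 208 with edgeR, 237 with DESeq2 and 6 to 128 without 1 library, the members called were 1 with array weights, 1 with DESeq2 and 0 to 1 without 1 library, and their median log2 fold was -0.22 with equal totals. For the ratio, where 9 genes were called, the number was 22 with a pseudocount of 0.1, 30 without a filter, 2 with a minimum mean of 5, 105 with equal totals, 15 with quantile normalization, 15 without a trend, 31 with array weights and 3 to 24 without 1 library, and the median log2 difference of members, 0.16, was -0.13 with equal totals, -0.028 with quantile normalization and 0.055 to 0.24 without 1 library. Libraries that share a replicate number had deviations correlated at -0.08, -0.12 and -0.29 between genotypes, and those with unlike numbers at -0.28 to 0.45. With 3 libraries in a group these values cannot decide whether the numbers pair libraries. With the replicate as a block 585 mRNA genes were called and 0 initiation factors, 0 pre-mRNA genes and 1 ratio. The cause of these changes was not tested. Few intronic reads limit the pre-mRNA values.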
